A study of Rattus norvegicus with 14 samples.

Results

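This comparison set rat aortic smooth muscle cells given JQ1 and then platelet-derived growth factor (PDGF) for 24 h against the same cells given PDGF alone for 24 h. Its members were the 3 libraries of each group, 6 of the 14 libraries of the study, and all 17312 genes of the deposited tables, with the 92 synthetic spike-in rows left out. Cells of the PDGF group were held without serum for 24 h and then received PDGF at 925 ng/ml, as the labels give the dose, for 24 h. The JQ1 plus PDGF group had the same serum-free period and the same PDGF, preceded by 3 h of JQ1 at 500 nM. The other groups used beside them were unstimulated cells (0 h, serum-free, no PDGF, 2 libraries) and PDGF or JQ1 plus PDGF for 2 h (3 libraries each). All cells were primary aortic smooth muscle cells from a commercial supplier, and no source says that replicates came from separate cultures, so the p-values measure only the spread between these libraries, which may be technical. Cells given only JQ1 were not analysed here, so what JQ1 did without PDGF and what it did to the PDGF response cannot be told apart. Sample titles carry letters A to D in the groups without JQ1 and E to H in those with it, and any difference those letters mark cannot be told apart from that made by JQ1.

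Smooth muscle cells of the aortic wall contract by means of actin, myosin and the proteins that regulate them, and they make the elastin and collagen of the wall. Under PDGF, which signals through the receptor tyrosine kinases PDGFR-alpha and PDGFR-beta, they are known to lose contractile gene expression, divide, migrate and secrete a different matrix, a change called phenotypic modulation. BET proteins, BRD2 and BRD3 among them, bind acetylated histones through their bromodomains and help RNA polymerase leave the promoter-proximal pause, partly by way of the kinase P-TEFb. JQ1 is a small molecule that occupies those bromodomains and displaces BET proteins from chromatin.

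Expression was measured as FPKM, a read count scaled to the length of the transcript and the size of the library, from 40-base reads of polyadenylated RNA. The first scale is the authors' normalised FPKM, made by a method not given in the sources used here. Dividing the unnormalised FPKM by 1 spike-in factor per library instead gave 5480 genes that passed, beside 5385. The second, called median-centred here, divides the unnormalised FPKM by 1 size factor per library, so that no shift shared by most genes remains. These factors, taken from genes above 0 in every library, lay between 1.015 and 1.024, so those genes were already near a common level. The 75th percentile of the unnormalised FPKM, spike-in rows included, lay between 17.1 and 17.6 in all libraries. Their median over all genes of the deposited tables was not alike: 2.13 ± 0.08 with PDGF and 1.29 ± 0.03 with JQ1 plus PDGF at 24 h (SD, n = 3 each). Without the division 4879 genes passed, beside 4883 with it. A difference is the mean log2(FPKM + 1) with JQ1 plus PDGF minus that with PDGF alone, with the standard error (SE) of a limma fit over all 14 libraries, and for genes at low FPKM the added 1 makes it smaller than the true log2 ratio. A gene passed when its Benjamini-Hochberg adjusted p over all genes tested was under 0.05, and "rose" and "fell" are used of such genes only. "Lower" and "higher" always compare JQ1 plus PDGF with PDGF alone at 24 h, and per-library values are given in the order of the column digits 0, 1 and 2, which order nothing else.

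Of the genes tested 5385 (53.1%) passed. On the normalised scale 4918 of the 10133 genes tested (48.5%) fell and 467 (4.61%) rose. The median difference over the genes tested was -0.48. On the median-centred scale 4883 passed (48.9%): 2578 of 9980 genes (25.8%) fell and 2305 (23.1%) rose around a median of 0.00. Counts of genes that fell or rose in the lists below are to be read beside these shares. The split between lower and higher therefore depended on the scale, whereas 2576 genes fell on both scales and 467 rose on both. With replicate 0 of the PDGF group and replicate 1 of the JQ1 plus PDGF group both left out, 3377 fell and 375 rose on the normalised scale and 2064 and 1726 on the median-centred scale. Among the 6 libraries, these are the ones in which the authors' normalisation moved low values furthest up and furthest down (0.78 and -0.51 on the log2 scale), and list counts "without 2 libraries" come from that fit (normalised scale where only 1 set of counts is given). The ranges of the groups lay apart, lower, for 5818 genes (57.4%) and apart, higher, for 708 (6.99%). Statements below that the ranges of a gene did not overlap are to be read beside these shares. The 12 lowest and 12 highest named genes were picked only from genes without overlap, so for them its absence is no result.

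**Figure D1:**
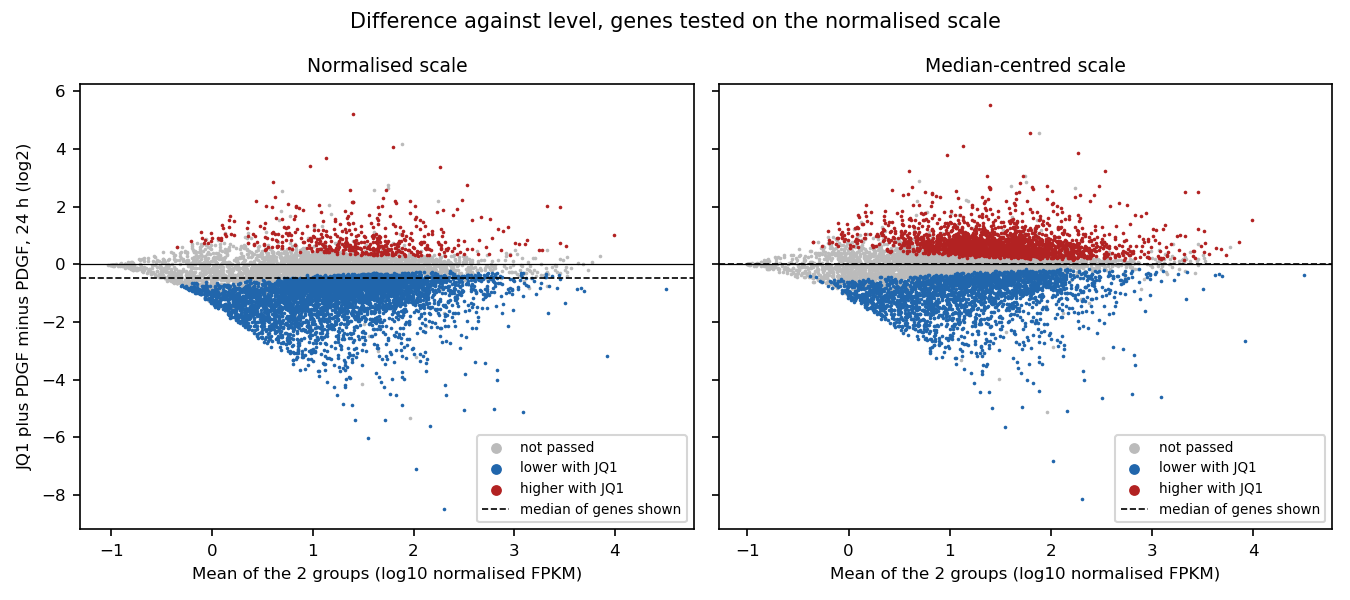
Log2 difference (JQ1 plus PDGF minus PDGF, 24 h) against the mean normalised FPKM of both groups on a log10 axis, 1 point per gene, on the normalised scale (left) and the median-centred scale (right). Blue genes were lower and red genes higher at an adjusted p under 0.05, grey genes did not pass, and the dashed line is the median (-0.48 left, 0.00 right).

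Spike-ins made up 1.80 ± 0.13% of the unnormalised FPKM with PDGF and 2.45 ± 0.21% with JQ1 plus PDGF (SD, n = 3 each; two-sided exact permutation p = 0.1, the smallest that 3 against 3 allows). Per the labels, each spike-in dose was matched to RNA from a fixed number of cells, so that less RNA per cell and fewer cells behind the same spike-in dose cannot be told apart. The normalised FPKM summed over all genes was 0.747-fold with JQ1. Between 10429 and 11503 genes were above 0 with PDGF and between 10603 and 11064 with JQ1, ranges that overlapped (two-sided exact permutation p = 0.6). Reads per library are unknown, and Spearman correlations between replicates, taken across genes, were 0.975 to 0.989. The smooth muscle label was checked on 8 markers: their summed normalised FPKM was 1720 to 1956 with PDGF and 328 to 482 with JQ1, and all 8 fell (7 of 7 on the median-centred scale, 7 on each scale without 2 libraries). Of 10 endothelial markers, Cdh5, Kdr, Emcn and Cldn5 were listed at 0 in all 6 libraries, and of 9 leukocyte markers Ptprc, Aif1, Cd3e and Cd79b were. Other members were not at 0. With PDGF the endothelial list summed to 124 to 149 normalised FPKM, mostly Eng, and the leukocyte list to 50.7 to 73.5, mostly Cd14. Both genes are described further below.

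The genes of the contractile apparatus were lower almost throughout. Of 24 tested, 21 fell on the normalised scale and none rose, with a median difference of -1.35 (18 of 23 fell on the median-centred scale, median -1.02). Without 2 libraries 19 fell on the normalised scale and 18 on the other. Acta2 encodes smooth muscle alpha-actin, the most used marker of the contractile state. Acta2 stood at 967, 1019 and 849.5 normalised FPKM with PDGF and 109.9, 69.3 and 84.6 with JQ1 plus PDGF. All JQ1 libraries lay far below all PDGF libraries, by 10.7-fold in the means. Acta2 fell by 3.43 ± 0.16 (limma adjusted p = 1.73e-10), and its level at 0 h had been 5251 ± 618 (SD, n = 2).

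Tagln (transgelin), an actin-binding protein, was lower by a smaller step: its normalised FPKM were 797, 829 and 771 with PDGF and 339, 230.5 and 272 with JQ1. The JQ1 libraries spread more widely than the PDGF libraries but did not reach them. Tagln fell by 1.52 ± 0.15 (limma adjusted p = 8.09e-07). Cnn1 (calponin 1), which restrains actomyosin, stood at 45.1 ± 2.44 normalised FPKM with PDGF and 6.68 ± 2.28 with JQ1 (SD, n = 3 each) and fell by 2.62 ± 0.17 (limma adjusted p = 7.09e-09). At 0 h Cnn1 stood at 320.3 ± 53.7 (SD, n = 2). The smooth muscle myosin heavy chain gene Myh11 was already low, at 2.37, 1.96 and 1.41 normalised FPKM with PDGF, and stood at 0.461, 0.203 and 0.486 with JQ1. Its ranges did not overlap and it fell by 1.07 ± 0.23, the low level limiting how firmly this can be read. Myocd, the coactivator of serum response factor that drives contractile genes, had 2.30, 1.41 and 1.03 normalised FPKM with PDGF and 0.118, 0.126 and 0.131 with JQ1. All 3 JQ1 values were near the bottom of the scale, and Myocd fell by 1.17 ± 0.27.

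Among the other members, the 3 with the largest differences beside Acta2 were Itga8, Lmod1 and Itga7. Integrin alpha 8, a matrix receptor of vascular smooth muscle, went from between 86.1 and 105 to between 8.48 and 10.9 normalised FPKM across the libraries of each group. Leiomodin 1, an actin nucleator, went from between 12.02 and 15.5 to between 0.593 and 1.16. Integrin alpha 7, a laminin receptor, went from between 343 and 372 to between 48.3 and 64.8. Each of the 3 fell by more than the spread of either group. Itga7 was the exception in its level before JQ1: it stood at 47.2 ± 5.80 at 0 h (SD, n = 2) and 361 ± 15.6 with PDGF at 24 h (SD, n = 3), so that the JQ1 group lay near the unstimulated level, while for Acta2, Tagln, Cnn1 and Lmod1 the PDGF group lay below the unstimulated level and the JQ1 group lower still.

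**Figure D2:**
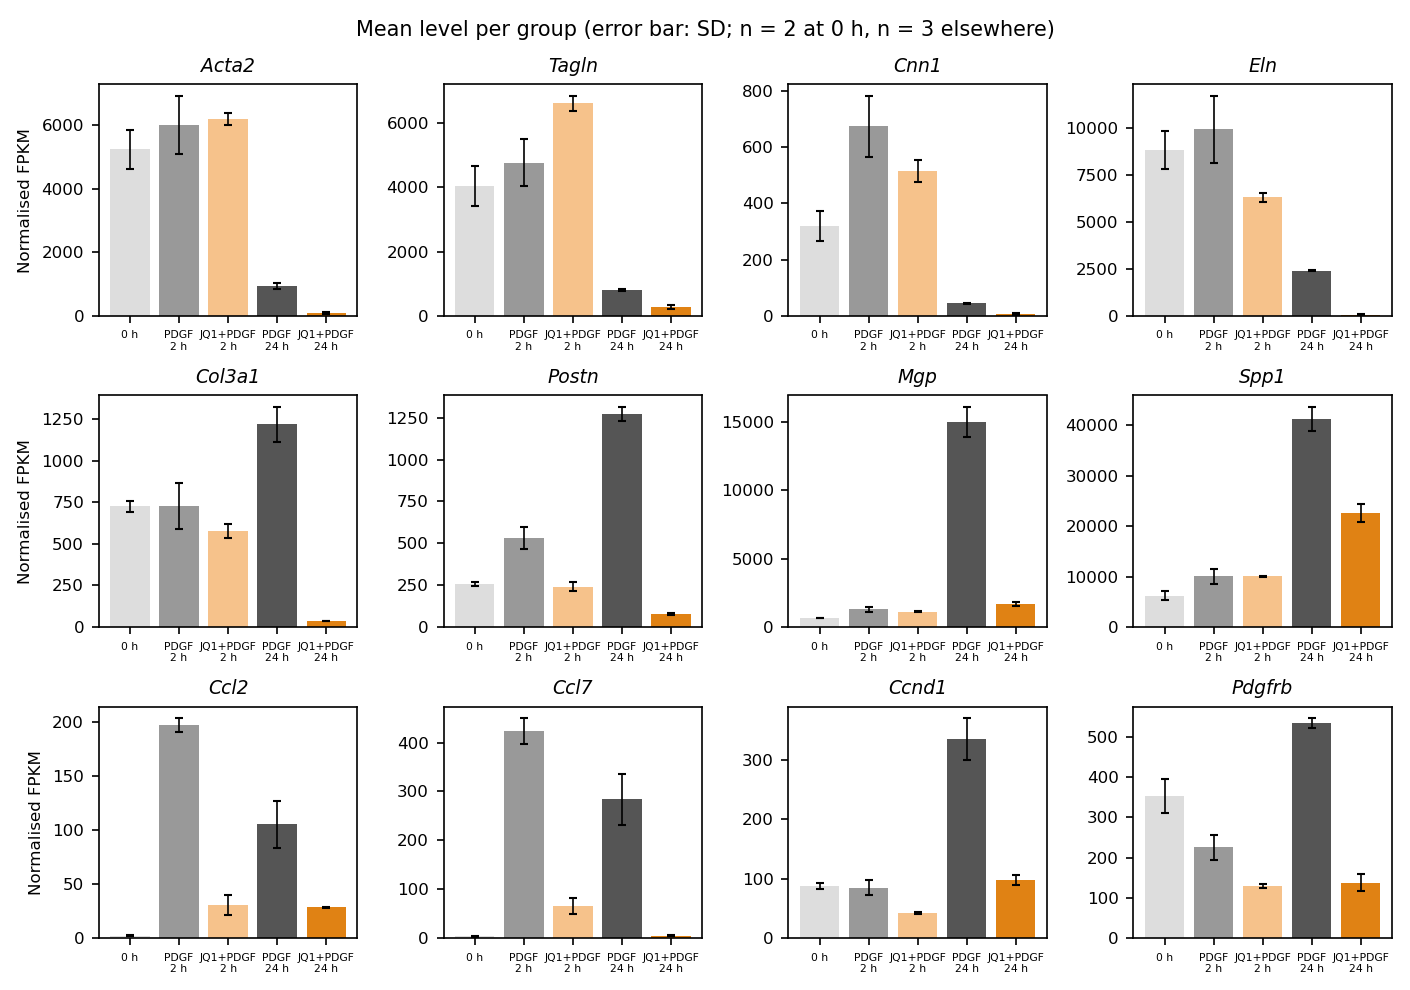
Mean normalised FPKM of 12 named genes in the 5 groups of the study (bars; error bars are the SD, n = 2 at 0 h and n = 3 elsewhere), each gene on its own linear axis from 0. The JQ1 plus PDGF bar at 24 h is below the PDGF bar at 24 h in every panel. At 2 h it is below the PDGF bar in every panel except Acta2, Tagln and Spp1. Cnn1, Col3a1 and Mgp, though lower at 2 h, did not pass there on the normalised scale.

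Matrix genes held many of the largest differences. Of 13 fibrillar and associated collagen genes 12 fell (median -1.35), and median-centred 12 fell and 1 rose (12 and 11 fell without 2 libraries). Col3a1 encodes type III collagen, a fibrillar collagen of the vessel wall. In normalised FPKM it stood at 1194, 1337 and 1131 with PDGF and 37.6, 35.3 and 37.3 with JQ1. The JQ1 libraries lay close together, and the PDGF mean was 33.2-fold theirs. Col3a1 fell by 5.01 ± 0.13 (limma adjusted p = 7.55e-13). Its mean at 0 h was 727 ± 33.3 (SD, n = 2), so the level with JQ1 was below the unstimulated level as well. Col16a1 (a collagen associated with fibrils) went from between 36.3 and 39.8 to between 2.58 and 3.41 normalised FPKM, Col6a2 (a chain of the beaded type VI filaments) from between 75.002 and 87.5 to between 8.18 and 12.1, and Col5a1 (type V collagen, which starts fibrils) from between 388 and 414 to between 54.7 and 64.6. None of these ranges overlapped, as was so, lower, for 57.4% of all genes tested.

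Of 18 elastic fibre and crosslinking genes 15 fell (median -1.85; 13 of 18 fell and 2 rose on the median-centred scale, and 14 fell on each scale without 2 libraries). Eln encodes tropoelastin, the soluble subunit of elastin. Its normalised FPKM were 2433, 2380.4 and 2384 with PDGF and 83.3, 49.1 and 77.7 with JQ1, after 8860.0 ± 1013 at 0 h (SD, n = 2). PDGF libraries differed by little, while the JQ1 libraries spread over a wider relative range far below them. The difference was -5.11 ± 0.18 (limma adjusted p = 6.98e-12), and the ratio of the group means was 34.2-fold. Lox, the lysyl oxidase that crosslinks elastin and collagen, had 147, 151 and 153 normalised FPKM with PDGF and 3.63, 4.31 and 4.64 with JQ1. It fell by 4.87 ± 0.16 (limma adjusted p = 2.74e-12). Emilin1, a glycoprotein between elastin and cells, went from 146 ± 6.22 to 8.85 ± 0.622 (SD, n = 3 each), and Loxl3, a lysyl oxidase relative, from 60.5 ± 5.69 to 6.57 ± 0.873 (SD, n = 3 each).

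Among 16 matricellular and calcification genes 14 fell and 1 rose (13 and 2 on the median-centred scale, median -1.59 and -1.09; 14 fell and 2 rose without 2 libraries). Wisp2, the CCN-family gene also called Ccn5, had 82.4, 139 and 85.7 normalised FPKM with PDGF and 1.18, 1.30 and 1.59 with JQ1. PDGF replicate 1 was the highest library, and no JQ1 library came near the PDGF group. Wisp2 fell by 5.42 ± 0.17 (limma adjusted p = 2.44e-12), a 75.4-fold ratio of means. Postn (periostin, a secreted protein of remodelling matrix) had 1246, 1249.6 and 1324 with PDGF and 84.01, 71.8 and 78.9 with JQ1. These JQ1 values were below the 257 ± 12.2 seen at 0 h (SD, n = 2), and Postn fell by 4.01 ± 0.11 (limma adjusted p = 1.98e-12).

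Mgp (matrix Gla protein, an inhibitor of calcification) was the second most abundant of the named genes in the PDGF group, per length. Its normalised FPKM were 16265, 14114 and 14579.9 with PDGF and 1754, 1713 and 1472 with JQ1. The groups were far apart, but the JQ1 level stayed above the 658 ± 24.8 of unstimulated cells (SD, n = 2). Mgp fell by 3.19 ± 0.13 (limma adjusted p = 3.51e-11). Spp1 (osteopontin), a marker of the modulated state and the most abundant named gene, had 44117, 39606 and 40209 normalised FPKM with PDGF and 24551, 21329 and 22006 with JQ1. All JQ1 libraries were lower, by a step smaller than that of Mgp, and still far above the 6187 ± 940.5 at 0 h (SD, n = 2). Spp1 fell by 0.87 ± 0.18 (limma adjusted p = 0.00068) and by 0.36 on the median-centred scale, where it also passed. Tnc (tenascin C, a matrix protein of injury) fell by 2.52 ± 0.17, from between 45.8 and 57.3 to between 7.46 and 9.74 normalised FPKM.

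Of 16 proteoglycan and hyaluronan genes 10 fell and 3 rose (7 and 3 on the median-centred scale; 9 and 3 without 2 libraries). Lum (lumican, a collagen-binding proteoglycan) had 106, 122 and 107 normalised FPKM with PDGF and 4.15, 4.65 and 3.20 with JQ1. Lum fell by 4.50 ± 0.12 (limma adjusted p = 1.49e-12). Acan (aggrecan), Fmod (fibromodulin) and Bgn (biglycan) fell by 2.69, 2.38 and 1.35. Bgn was the most abundant of these per length, at 4608 ± 155 with PDGF and 1829 ± 326 with JQ1 (normalised FPKM, SD, n = 3 each).

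Of 19 matrix proteases and inhibitors 14 fell and 3 rose (10 and 4 of 17 on the median-centred scale; 11 and 3 without 2 libraries). Mmp2 encodes gelatinase A. It had 423, 382 and 375 normalised FPKM with PDGF and 22.1, 19.2 and 20.05 with JQ1. The JQ1 libraries lay within a narrow band, and the PDGF mean was 19.2-fold theirs. Mmp2 fell by 4.20 ± 0.13 (limma adjusted p = 2.44e-12). Mmp14, the membrane protease that activates the Mmp2 product, fell by 2.18 ± 0.12, and the secreted protease gene Adamts12 fell by 3.28 ± 0.13. Serpinb2, which encodes the plasminogen activator inhibitor PAI-2, went the other way. It stood at 1.79, 0.642 and 0.999 normalised FPKM with PDGF and 25.8, 24.6 and 27.8 with JQ1. Serpinb2 rose by 3.69 ± 0.23 (limma adjusted p = 5.01e-09).

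**Figure D3:**
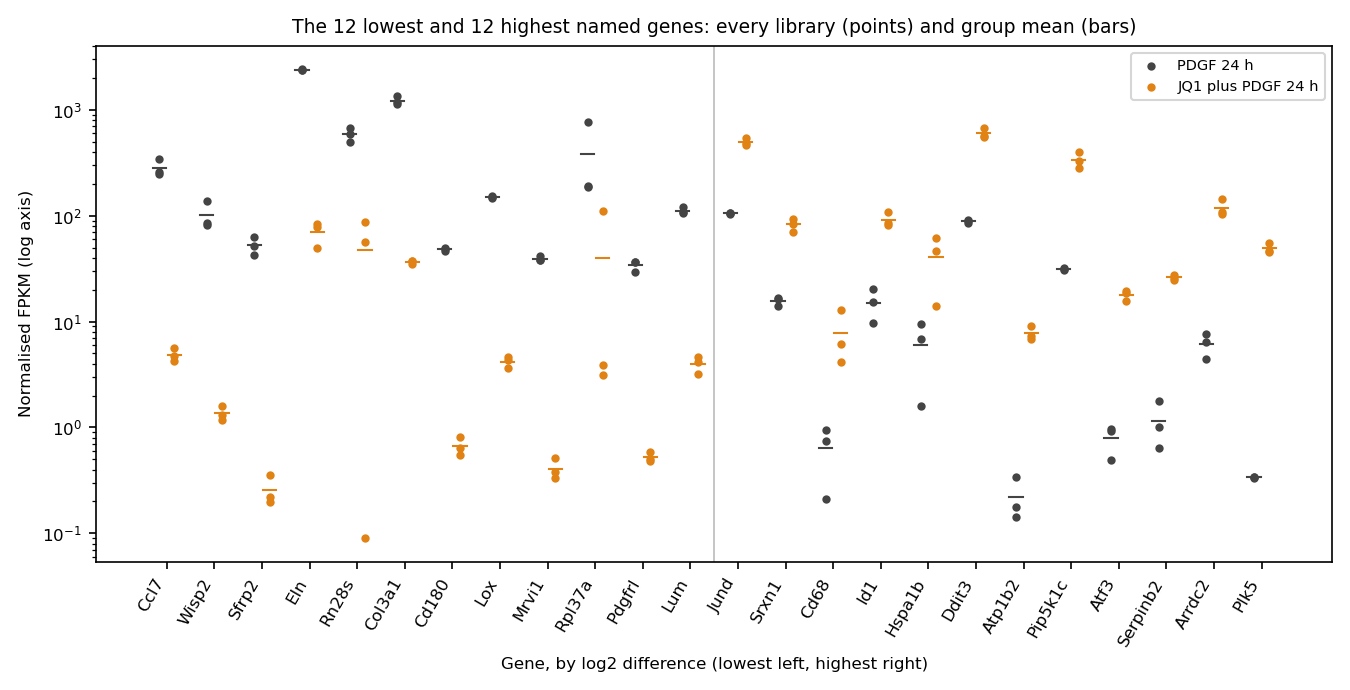
Normalised FPKM on a log axis of the 12 genes with the lowest and the 12 with the highest differences under the naming rule, 1 point per library and a bar at the mean, grey for PDGF 24 h and orange for JQ1 plus PDGF 24 h (n = 3 each). Group ranges do not overlap, as the rule requires; Rn28s and Rpl37a spread widely between libraries.

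The remaining genes at the lower end came from several families. Sfrp2 (a secreted antagonist of Wnt) had 51.6, 63.6 and 42.5 normalised FPKM with PDGF and 0.197, 0.219 and 0.356 with JQ1. With JQ1 it was barely above the value given to a listed 0, and it fell by 5.40 ± 0.30 (limma adjusted p = 1.23e-09). Cd180, a Toll-like receptor relative, had 48.5, 49.1 and 46.5 with PDGF and 0.553, 0.638 and 0.804 with JQ1 and fell by 4.88 ± 0.15. Its PDGF level was close to that at 0 h, 48.3 ± 7.45 (SD, n = 2). Mrvi1, whose product takes part in nitric oxide and cGMP control of calcium release in smooth muscle, had 41.8, 38.2 and 38.2 with PDGF and 0.380, 0.329 and 0.513 with JQ1 and fell by 4.84 ± 0.17. Pdgfrl, a secreted protein named for its likeness to the PDGF receptors, had 36.3, 29.3 and 36.5 with PDGF and 0.583, 0.481 and 0.498 with JQ1 and fell by 4.52 ± 0.14. In all 4 of these genes the JQ1 libraries were within a narrow range below 1 normalised FPKM, far from the PDGF libraries. Rn28s (ribosomal RNA, which polyadenylated libraries should hold little of) and Rpl37a are multi-copy or short. They stood, with PDGF against JQ1, at 496, 680.5 and 594 against 87.8, 0.0899 and 55.8 and at 769.6, 190.2 and 187 against 3.13, 111 and 3.86, a spread between replicates so wide that they are uncertain.

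Of 24 growth factor ligand and receptor genes 16 fell and 4 rose, beside 48.5% lower and 4.61% higher of all genes tested (13 and 5 on the median-centred scale; 15 and 4 without 2 libraries; median -1.02). Pdgfrb encodes the receptor that binds the PDGF-B chain. It stood at 549.6, 524 and 534 normalised FPKM with PDGF and 161, 119 and 132 with JQ1. The PDGF libraries were tightly grouped, the JQ1 libraries lay well below them, and the JQ1 mean was also under the 353 ± 41.7 of unstimulated cells (SD, n = 2). Pdgfrb fell by 1.97 ± 0.13 (limma adjusted p = 6.87e-09). Pdgfra, the other PDGF receptor, had 21.8, 25.02 and 25.3 normalised FPKM with PDGF and 1.52, 1.31 and 1.16 with JQ1 and fell by 3.43 ± 0.20. The ligand genes Pdgfc and Pdgfd fell by 3.06 and 2.12. Areg (amphiregulin, a ligand of the EGF receptor) was among the 4 that rose, from between 0.492 and 1.29 to between 4.99 and 7.50 normalised FPKM, by 2.02 ± 0.26 (limma adjusted p = 1.04e-05).

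Of 27 vasoactive receptor and channel genes 19 fell and none rose (15 fell and 4 rose of 26 on the median-centred scale; 17 fell without 2 libraries). Kcnn4, a calcium-activated potassium channel of proliferating smooth muscle, had 158, 126 and 147 normalised FPKM with PDGF and 8.86, 10.5 and 10.1 with JQ1. The JQ1 values came close to the 7.57 ± 0.485 of unstimulated cells (SD, n = 2), and Kcnn4 fell by 3.74 ± 0.20 (limma adjusted p = 7.88e-10). Adra1d, an alpha-1 adrenergic receptor, had 17.7, 14.1 and 11.9 with PDGF and 0.102, 0.232 and 0.300 with JQ1, where 1 library was listed at 0 before normalisation. Rgs16 and Rgs4, regulators of G protein signalling, fell by 3.24 and 3.06. Their levels at 0 h differed: 2.04 ± 1.12 for Rgs16 and 83.3 ± 12.1 for Rgs4 (normalised FPKM, SD, n = 2).

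In TGF-beta and BMP signalling 19 of 27 genes fell and 3 rose (13 and 7 on the median-centred scale; 18 and 2 without 2 libraries). Among ligands and their antagonists, Tgfb3 went from between 91.6 and 99.1 to between 12.9 and 15.7 normalised FPKM, and Grem1 (gremlin, a BMP antagonist) from between 41.4 and 44.4 to between 3.67 and 4.59. The co-receptor gene Eng (endoglin) fell by 2.56 ± 0.15. Id1, a target gene of BMP signalling that encodes an inhibitor of helix-loop-helix factors, had 20.2, 15.2 and 9.79 with PDGF and 109, 84.7 and 80.9 with JQ1. The PDGF libraries spread widely. Id1 rose by 2.57 ± 0.38 (limma adjusted p = 4.64e-05). Of 16 Notch and Wnt modulators 7 fell and 1 rose, shares near those of all genes tested (48.5% lower and 4.61% higher). Median-centred, 5 of 15 fell and 2 rose, beside 25.8% and 23.1%, and without 2 libraries 5 fell and 1 rose. Notch3, the Notch receptor of arterial smooth muscle, went from between 19.7 and 22.3 to between 2.75 and 5.02 normalised FPKM and fell by 2.28 ± 0.19. Dkk3 and Notch1 fell by 2.12 and 1.13.

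Of 18 inflammatory genes 11 fell and 3 rose, beside 48.5% lower and 4.61% higher of all genes tested (9 and 3 on the median-centred scale and without 2 libraries on either). Ccl7, a chemokine that attracts monocytes, had the lowest difference of the named genes. Its normalised FPKM were 261, 246 and 342 with PDGF and 4.20, 4.70 and 5.57 with JQ1. PDGF replicate 2 was the highest library, and the JQ1 libraries came down to near the 3.16 ± 0.805 of unstimulated cells (SD, n = 2). Ccl7 fell by 5.60 ± 0.18 (limma adjusted p = 2.44e-12), a 58.7-fold ratio of means. Ccl2, a related monocyte chemokine whose gene is close to Ccl7 in mammals, had 96.4, 89.1 and 130.1 normalised FPKM with PDGF and 28.5, 28.04 and 28.2 with JQ1. It fell less far, by 1.84 ± 0.18 (limma adjusted p = 6.02e-07), and stayed well above the 2.07 ± 0.177 of unstimulated cells (SD, n = 2). Cxcl12, a chemokine of progenitor cell homing, went from between 209 and 307 to between 15.2 and 22.2. Tnfrsf11b (osteoprotegerin, the decoy receptor of RANKL) went from between 97.9 and 113 to between 11.01 and 12.02, and Il1rl1, the interleukin 33 receptor, from between 11.6 and 14.3 to between 1.09 and 1.45.

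Ccl7 is shown with the 250 bases before its start site because it had the lowest difference, and Ddit3, described with the stress genes, because it had the highest level with JQ1, per length, of the 12 genes at the upper end. The sequences are those of the RefSeq promoter table, on the gene's strand (build GRCr8, Ccl7 at chr10:67513845-67514094 and Ddit3 at chr7:65001445-65001694, both on the + strand). Capitals mark TATAAA in Ccl7, 34 bases before the start. In Ddit3 they mark TGACTCA (241 bases before) and CTTCCGG, the reverse complement of CCGGAAG (198 bases before).
Ccl7: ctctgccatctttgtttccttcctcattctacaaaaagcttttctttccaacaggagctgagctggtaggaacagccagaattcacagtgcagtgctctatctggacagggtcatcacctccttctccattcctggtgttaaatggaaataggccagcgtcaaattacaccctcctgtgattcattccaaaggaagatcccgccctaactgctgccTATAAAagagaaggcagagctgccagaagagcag
Ddit3: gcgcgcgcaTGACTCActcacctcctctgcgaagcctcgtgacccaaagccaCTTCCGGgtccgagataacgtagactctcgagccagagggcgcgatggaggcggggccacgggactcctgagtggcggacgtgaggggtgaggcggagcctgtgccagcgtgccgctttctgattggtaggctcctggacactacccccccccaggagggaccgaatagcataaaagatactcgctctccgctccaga
In windows of 300 bases (250 before to 50 after the start), searched on both strands, TATAAA occurred in 6.58% of the promoters of tested genes, TGACTCA in 3.34% and CCGGAAG in 19.1%, over the 8231 of 10133 tested genes with a promoter in the table (81.2%). A match describes the letters only.

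Interferon-response genes were lower in 13 of 19 cases and higher in 2 (10 and 2 on the median-centred scale; 10 and 1 without 2 libraries). The immunoproteasome subunit genes Psmb8 and Psmb9 fell by 2.48 and 2.25. Bst2 (tetherin) went from between 18.2 and 25.7 to between 3.60 and 4.22 normalised FPKM, and Isg15, a ubiquitin-like modifier, from between 7.39 and 13.8 to between 1.60 and 2.25. In each of these 4 genes the ranges did not overlap, as was so, lower, for 57.4% of all genes tested.

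Genes of mitosis formed the list with the lowest median. Of 28 G2/M genes 27 fell (median -1.998), 25 on the median-centred scale (median -1.59) and 26 and 25 without 2 libraries. Levels were modest with PDGF alone. Ube2c, which charges the anaphase-promoting complex with ubiquitin, had 28.6, 12.7 and 12.2 with PDGF, 2.12, 0.448 and 1.37 with JQ1 and 49.1 ± 12.5 at 0 h (normalised FPKM; SD, n = 2). Plk1, the mitotic polo-like kinase, went from between 7.24 and 9.77 to between 0.414 and 0.717. Knstrn (kinastrin) and Kif20a, both mitotic spindle genes, fell by 2.54 and 2.54. No JQ1 library of these 4 genes reached the PDGF range, beside 57.4% of all genes tested with ranges apart, lower.

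Of 35 genes of G1/S and DNA replication 25 fell and 1 rose, against 14 and 3 on the median-centred scale (19 and 1, and 13 and 3, without 2 libraries). Ccnd1 (cyclin D1), which partners CDK4 and CDK6 in G1, had 328, 305 and 375 normalised FPKM with PDGF and 107, 91.8 and 92.9 with JQ1. The JQ1 libraries were within the neighbourhood of the 87.3 ± 5.30 at 0 h (SD, n = 2), and Ccnd1 fell by 1.78 ± 0.12 (limma adjusted p = 7.72e-09). Rrm2, the regulated subunit of ribonucleotide reductase, had 19.02, 15.4 and 16.3 with PDGF and 0.962, 0.116 and 1.85 with JQ1. Tk1 (thymidine kinase 1) fell by 3.02 ± 0.15, Tyms (thymidylate synthase) by 2.27 and Mcm3, a subunit of the replicative helicase, by 2.18. Of 19 CDK inhibitor and p53 target genes 10 fell and 3 rose, beside 48.5% lower and 4.61% higher of all genes tested. Median-centred, 9 fell and 7 rose, beside 25.8% and 23.1%, and without 2 libraries 9 fell and 3 rose. Cdkn2a, the locus of p16 and ARF, went from between 67.9 and 85.999 to between 14.6 and 22.1 normalised FPKM. The p53 targets Ccng1, Zmat3 and Mdm2 fell by 1.40, 1.35 and 1.30.

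Immediate early genes moved mostly upward. Of 24 tested, 15 rose and 3 fell (median 0.55), and median-centred 20 rose and 1 fell (median 1.05); without 2 libraries 15 and 3, and 19 and 1. Atf3, a stress-induced bZIP factor, had 0.965, 0.492 and 0.921 normalised FPKM with PDGF and 19.6, 15.6 and 18.8 with JQ1. PDGF levels were near those at 0 h, 0.813 ± 0.104 (SD, n = 2), and no JQ1 library was close to them. Atf3 rose by 3.41 ± 0.16 (limma adjusted p = 1.24e-10). Jund, an AP-1 subunit, had 107, 105 and 103.9 with PDGF and 539, 483 and 468 with JQ1. The PDGF libraries were almost equal and the JQ1 libraries averaged 4.72-fold of their level. Jund rose by 2.23 ± 0.12 (limma adjusted p = 1.18e-09). Nr4a1, an orphan nuclear receptor, rose by 1.81 ± 0.18 and the zinc finger gene Egr1 by 1.64 ± 0.15.

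Of 17 ERK feedback genes 4 rose and 6 fell (5 and 2 on the median-centred scale; 3 and 5 without 2 libraries). Dusp6 and Dusp5 encode phosphatases of ERK. Dusp6 had 29.1, 30.7 and 42.2 normalised FPKM with PDGF and 104.3, 79.4 and 89.8 with JQ1, and Dusp5 had 4.77, 5.05 and 5.93 with PDGF and 19.3, 11.96 and 15.1 with JQ1. Both ranges were higher with JQ1 and apart from the PDGF ranges. Dusp6 rose by 1.41 ± 0.15 and Dusp5 by 1.38 ± 0.22. Phlda1 rose by 1.58 ± 0.14. Spred3, an inhibitor of Ras to ERK signalling, went from between 12.6 and 16.2 to between 1.80 and 2.46 and fell by 2.26 ± 0.21.

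Transcription factors tied to smooth muscle state were divided: 12 of 30 fell and 5 rose, beside 48.5% lower and 4.61% higher of all genes tested. Median-centred, 10 fell and 11 rose, beside 25.8% and 23.1%. Without 2 libraries 10 fell and 5 rose, and 9 and 10 median-centred. Prrx1, a homeobox factor of mesenchymal cells, had 161, 127 and 157 normalised FPKM with PDGF and 23.3, 24.3 and 23.8 with JQ1. The JQ1 libraries were within 1 unit of each other and at the level of unstimulated cells, 23.2 ± 5.08 (SD, n = 2). Prrx1 fell by 2.58 ± 0.17 (limma adjusted p = 9.24e-09). The T-box gene Tbx2, the ETS-family gene Elk3 and the homeobox gene Prrx2 fell by 2.10, 1.86 and 1.68.

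Brd2 and Brd3 encode BET proteins, which JQ1 binds. Brd2 had 1.11, 0.876 and 0.880 normalised FPKM with PDGF and 7.77, 5.99 and 6.75 with JQ1. Every JQ1 library was higher, though the level is low and RefSeq lists a related gene, Brd2l, with which reads could be shared, so the value is uncertain. Brd2 rose by 2.00 ± 0.24 (limma adjusted p = 5.16e-06). Brd3 had 29.3, 22.2 and 22.05 with PDGF and 22.7, 17.1 and 15.5 with JQ1, ranges that overlapped, and its difference of -0.40 ± 0.17 did not pass (limma adjusted p = 0.0565). Without JQ1 plus PDGF 24 h replicate 0 the Brd3 difference was -0.55 and passed.

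Hexim1 encodes the inhibitor of P-TEFb and is often used as a readout of BET inhibition. The libraries held 65.5, 54.99 and 56.9 normalised FPKM with PDGF and 189, 164 and 162 with JQ1. No ranges overlapped, and Hexim1 rose by 1.52 ± 0.13 (limma adjusted p = 1.69e-07). Of 8 genes of BET proteins, P-TEFb and the 7SK particle 2 rose and 2 fell on the normalised scale (the same counts without 2 libraries), whereas 4 rose and none fell on the median-centred scale (3 and 0 without 2 libraries). Hexim2 and Larp7 were the 2 that fell, by 1.42 and 0.77, and neither passed on the median-centred scale (adjusted p of 0.0966 and 0.176 in limma).

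Myc, whose loss is a familiar effect of BET inhibition in blood cancers, was higher here. Its normalised FPKM were 40.8, 39.4 and 34.9 with PDGF and 69.3, 53.2 and 57.4 with JQ1. The JQ1 libraries lay above the PDGF libraries and around the 56.9 ± 9.73 of unstimulated cells (SD, n = 2). Myc rose by 0.62 ± 0.14 (limma adjusted p = 0.0012). In the Myc network 2 of 9 genes rose and 4 fell, beside 4.61% higher and 48.5% lower of all genes tested. Median-centred, 2 rose and 2 fell, beside 23.1% and 25.8%, and without 2 libraries 2 rose and 1 fell. The antagonist Mxd1 rose by 1.33 ± 0.22 and the related Mxd4 fell by 1.54 ± 0.26. Mxd3 and Mnt, which fell by 1.26 and 0.67, did not pass without 2 libraries (limma adjusted p of 0.0956 and 0.0905).

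Histone genes, most of whose messages lack a poly(A) tail and belong to families of near-identical copies, are uncertain in such libraries. Of 13 tested 8 rose and 1 fell (10 and 0 on the median-centred scale; 7 and 0 on each without 2 libraries). Hist1h2bk had 35.6, 33.7 and 24.9 normalised FPKM with PDGF and 174, 97.7 and 184 with JQ1. H2afx, whose product is phosphorylated at DNA breaks, had 50.2, 34.6 and 39.5 with PDGF and 169, 132 and 127 with JQ1. H3f3b, a gene of the variant histone H3.3, had 198, 256 and 235 with PDGF and 754, 692 and 688 with JQ1. H2afx rose by 1.77 ± 0.17 and H3f3b by 1.63 ± 0.11, with no overlap in either.

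Stress genes supplied several of the highest differences. Ddit3 encodes CHOP, a factor of the integrated stress response. It had 89.5, 90.97 and 84.4 normalised FPKM with PDGF and 671, 553 and 570.5 with JQ1. All JQ1 libraries lay far above, at 6.77-fold in the means. Ddit3 rose by 2.74 ± 0.10 (limma adjusted p = 1.33e-11). Chac1, a glutathione-degrading enzyme induced in the same response, went from between 17.4 and 19.9 to between 69.6 and 85.9. In the amino acid and endoplasmic reticulum stress list, however, 6 of 25 genes rose and 7 fell (16 and 5 on the median-centred scale; 6 and 6, and 15 and 4, without 2 libraries). Aldh1l2, a mitochondrial folate enzyme, fell by 2.51 ± 0.20 and Xbp1, the factor of the unfolded protein response, by 1.45 ± 0.14.

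Of 19 Nrf2 and metallothionein genes 8 rose and 5 fell (11 and 3 of 18 on the median-centred scale; 9 and 3 without 2 libraries). Srxn1 (sulfiredoxin 1) had 16.8, 13.9 and 16.5 normalised FPKM with PDGF and 93.99, 70.3 and 83.7 with JQ1. Gclc, the catalytic subunit for glutathione synthesis, had 26.7, 19.6 and 26.3 with PDGF and 123, 94.4 and 107 with JQ1. In both genes each JQ1 library was far above each PDGF library. Srxn1 rose by 2.32 ± 0.14 (limma adjusted p = 3.43e-09) and Gclc by 2.12 ± 0.13 (limma adjusted p = 4.39e-09). Ftl1 (ferritin light chain, a gene with many processed copies) had 1817, 1267 and 539 with PDGF against 5946, 4196 and 3214 with JQ1, and Mt2A, a metallothionein, 82.7, 304 and 256 against 639, 476 and 528. Those 2 rose by 2.00 ± 0.46 and 1.54 ± 0.34 with a wide spread between PDGF replicates.

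Among the highest genes outside these lists, Plk5 led. This polo-like kinase gene, known for a lack of kinase activity in its human form, had 0.334, 0.341 and 0.342 normalised FPKM with PDGF and 55.8, 46.8 and 45.1 with JQ1. It was near the floor in all PDGF libraries and high in all JQ1 libraries, and it rose by 5.22 ± 0.32 (limma adjusted p = 3.32e-09). Arrdc2, an arrestin-domain gene, had 7.56, 6.43 and 4.44 with PDGF and 143, 108 and 104.5 with JQ1 and rose by 4.07 ± 0.22 (limma adjusted p = 9.64e-10). Pip5k1c, a kinase that makes phosphatidylinositol 4,5-bisphosphate at adhesions, had 31.96, 30.6 and 31.3 with PDGF and 398, 282 and 329 with JQ1 and rose by 3.37 ± 0.15 (limma adjusted p = 9.40e-11). In each of these 3 genes JQ1 replicate 0 was the highest library on the normalised scale. In unnormalised FPKM the highest for Plk5 was JQ1 replicate 1 (53.4, 56.2 and 52.9), so that order depended on the scale. Atp1b2, a beta subunit of the sodium pump, rose by 2.84 ± 0.23, from 0.178, 0.343 and 0.141 to 9.17, 6.86 and 7.33, with PDGF replicate 0 listed at 0 before normalisation. Hspa1b, an Hsp70 gene with a near-identical neighbour Hspa1a, had 9.50, 1.60 and 6.83 with PDGF and 62.1, 46.1 and 14.01 with JQ1. It is uncertain: its difference of 2.57 ± 0.82 passed (limma adjusted p = 0.0151), but not without PDGF 24 h replicate 1 (1.97), without JQ1 plus PDGF 24 h replicate 0 (2.15) or without its replicate 1 (2.36). Txnip, a thioredoxin-binding arrestin relative, rose by 0.79 ± 0.16, from between 116 and 144 to between 195 and 264 normalised FPKM.

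Ribosome biogenesis genes, which encode factors that make and process ribosomal RNA, passed in numbers that depended on the scale. Of 26 genes 6 rose and none fell on the normalised scale (median 0.35), and all 26 rose on the median-centred scale (median 0.86); without 2 libraries 7 and 25 rose. Nop56, a component of box C/D ribonucleoproteins, had 73.4, 55.4 and 62.2 normalised FPKM with PDGF and 137, 119 and 105 with JQ1. The nucleolar helicase gene Ddx21 had 47.1, 49.3 and 57.9 with PDGF and 103, 79.6 and 91.9 with JQ1. In both the JQ1 libraries were higher with no overlap. Nop56 rose by 0.91 ± 0.13 (limma adjusted p = 2.27e-05) and Ddx21 by 0.82 ± 0.14 (limma adjusted p = 0.000185). Rrp9 rose by 0.58 ± 0.14 and Npm1 (nucleophosmin) by 0.50 ± 0.11.

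Promoters in the RefSeq table were found for 23 of these 26 genes (88.5%). The letters CACGTG, the E-box that Myc and other helix-loop-helix factors can bind, occurred in 8 of the 23 (34.8%), beside 9.66% of the promoters of tested genes and 6.65% of all 27457 promoters in the table. The letters read the same on both strands. The AP-1 letters TGACTCA and the cyclic AMP response element TGACGTCA, searched as well, were in none of the 23. They occurred in only 3.34% and 3.43% of the promoters of tested genes, so their absence from so few promoters says little. CCGGAAG, which ETS factors can bind, occurred in 7 of the 23 (30.4%), beside 19.1% of tested genes. Windows of 30 bases around CACGTG (in capitals; RefSeq, GRCr8, gene's strand) are shown for 6 genes, picked for the letters after values were seen, because the members rose together on the median-centred scale.
Fbl, chr1:92597416-92597445, + strand: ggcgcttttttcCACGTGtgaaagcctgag
Pes1, chr14:83074284-83074313, + strand: ccctaagcggggCACGTGcggtaggaagta
Gnl3, chr16:6219790-6219819, - strand: agttccagttcgCACGTGgcgcccgagacg
Utp20, chr7:25102959-25102988, - strand: cagcactagctaCACGTGagaaaaagcaga
Dkc1, chrX:157751455-157751484, + strand: agcgtcccggcgCACGTGcgggccccaccc
Rcl1, chr1:236238114-236238143, + strand: cctgttctaaacCACGTGgacgcgtcgggg
The other 2 genes with the letters were Nop2 and Mybbp1a. Of the 6 genes shown, Fbl (fibrillarin, the methylase of ribosomal RNA) differed by 0.02 ± 0.12, Pes1 by 0.17 ± 0.12, Gnl3 (nucleostemin) by 0.33 ± 0.14, Utp20 by 0.06 ± 0.18, Dkc1 (dyskerin) by 0.11 ± 0.14 and Rcl1 by 0.37 ± 0.15 on the normalised scale. None of these 6 passed on the normalised scale and all 6 rose on the median-centred scale.

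Genes that rose on both scales had a promoter in the table in 83.9% of cases, and TATAAA occurred in 57 of these (14.5%), beside 6.58% of tested genes and 14.3% of all promoters in the table. The following 5 windows are from named genes that rose, with TATAAA in capitals (RefSeq, GRCr8, gene's strand).
Atp1b2, chr10:54823743-54823772, - strand: agagtcacagagTATAAAgactgtgcgcag
Id1, chr3:161671493-161671522, + strand: tgggtccgccctTATAAAaggctggcccca
Areg, chr14:17265685-17265714, - strand: ttcccgcgggtcTATAAAgtgctcaccgca
Mt2A, chr19:10838722-10838751, - strand: aatactctgggcTATAAAggtcgcgctccg
H3f3b, chr10:101757642-101757671, - strand: gtgaagcgtctcTATAAAtatggaggcgtc
The letters begin 52 bases before the start in Atp1b2, 59 in Id1, 61 in Areg, 31 in Mt2A and 23 in H3f3b. Fewer than 80% of the genes that fell on both scales (79.4%), the contractile genes (75%) and the immediate early genes (70.8%) had a promoter in the table. Their shares therefore describe only a part of each set. TATAAA occurred in 6.65% of the promoters found for genes that fell on both scales. For genes that fell on both scales by at least 2 log2 units (75.1% with a promoter) the share was 10.7%, also above that of tested genes. It occurred in 1 of 18 contractile and 5 of 17 immediate early promoters.

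Lists of general cell upkeep had medians between -0.52 and -0.27, beside -0.48 for all genes tested. The shares over all genes tested were 48.5% lower and 4.61% higher, and 25.8% and 23.1% on the median-centred scale. Of 31 cytosolic ribosomal protein genes 8 fell (median -0.33), against 10 that rose and 2 that fell when median-centred (3 fell without 2 libraries, and 7 rose and 1 fell). Rpl11 fell by 0.89 ± 0.13 and Rpl19 by 0.73 ± 0.15. Of 27 oxidative phosphorylation genes 18 fell and none rose, against 3 and 5 on the median-centred scale (15 and 0, and 1 and 4, without 2 libraries). Sdha, a subunit of succinate dehydrogenase, went from between 84.1 and 87.7 to between 40.96 and 49.03 normalised FPKM. Of 26 proteasome genes 9 fell and none rose, against 15 that rose and none that fell on the median-centred scale (2 fell, and 6 rose, without 2 libraries). Psmb2 and Psma2 fell by 0.43 and 0.43 on the normalised scale and stood at 0.07 each, not passing, on the other. Of 28 lysosome and autophagy genes 11 fell and 3 rose, against 3 and 15 (6 and 2, and 3 and 14, without 2 libraries). Hexa, a lysosomal hexosaminidase subunit, fell by 1.14 ± 0.11 and Wipi1, an autophagosome protein gene, by 1.58 ± 0.15, and both fell on the median-centred scale too.

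Sterol synthesis genes were mostly lower. Of 24 cholesterol synthesis genes 20 fell and 1 rose (14 and 3 on the median-centred scale; 19 and 1, and 13 and 2, without 2 libraries). Pmvk (phosphomevalonate kinase) had 132, 100.1 and 103 normalised FPKM with PDGF and 27.3, 17.999 and 18.8 with JQ1, and it fell by 2.35 ± 0.16 (limma adjusted p = 7.87e-09). Cyp51, the sterol demethylase, fell by 1.49 ± 0.10 and Nsdhl by 1.51 ± 0.14. Of 20 glycolysis genes 11 fell and 1 rose (6 and 5 on the median-centred scale; 9 and 1, and 5 and 5, without 2 libraries), shares near those of all genes tested (48.5% lower and 4.61% higher, and 25.8% and 23.1% on the median-centred scale). The 2 monocarboxylate transporter genes named went opposite ways. Slc16a3, which exports lactate, had 40.5, 23.6 and 32.3 with PDGF and 8.42, 9.67 and 8.61 with JQ1. Slc16a1 had 11.7, 10.8 and 12.3 with PDGF and 38.2, 29.5 and 32.8 with JQ1. Slc16a3 fell by 1.71 ± 0.24 and Slc16a1 rose by 1.44 ± 0.15, with no overlap in either. Pfkm, muscle phosphofructokinase, fell by 1.89 ± 0.14. Of 15 circadian clock genes 9 fell and none rose (6 and 5 on the median-centred scale; 8 and 0, and 5 and 3, without 2 libraries), with Npas2 at -1.99 ± 0.24, Per3 at -1.85 ± 0.27, Dbp at -1.65 ± 0.18 and Per2 at -1.48 ± 0.19.

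**Figure D4:**
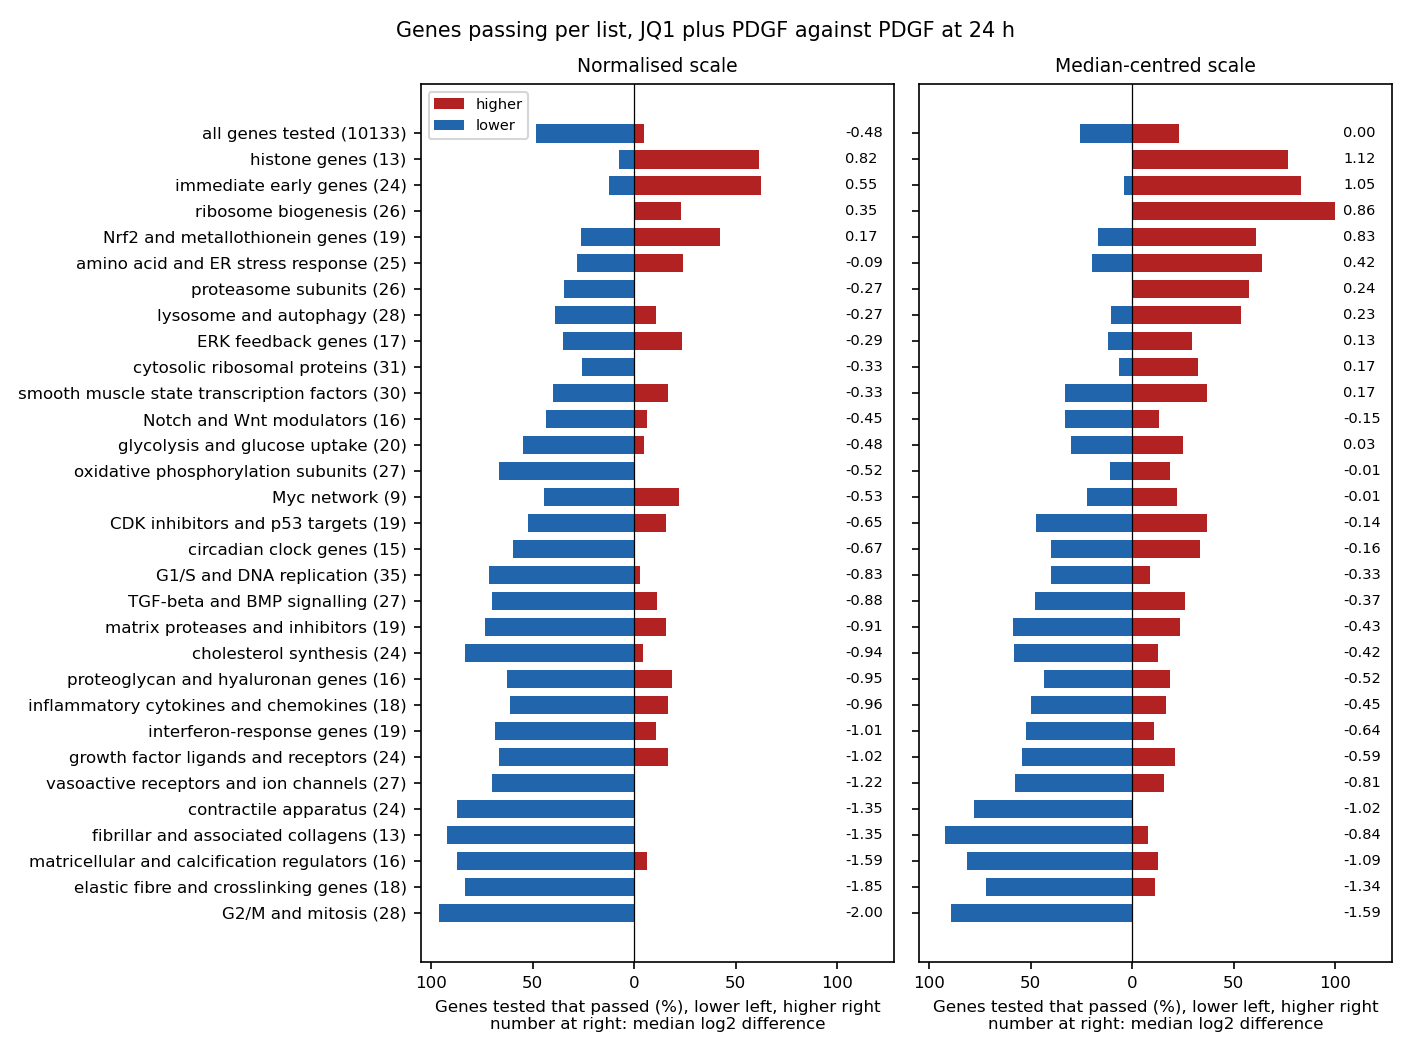
Share of the tested genes of each list (of 9 or more genes tested) that passed lower (blue, to the left) and higher (red, to the right) on the normalised and the median-centred scale, with the median log2 difference printed at the right of each bar and the number tested on the normalised scale in brackets. All genes tested are in the top row (48.5% lower and 4.61% higher on the left, 25.8% and 23.1% on the right).

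Markers of other cell types were examined beside these lists. The summed normalised FPKM of 10 endothelial markers was 124 to 149 with PDGF and 18.4 to 24.6 with JQ1. Most of it was Eng, at 128.1 ± 11.7 with PDGF (SD, n = 3), and the 3 tested (Eng, Erg and Tek) fell (2 without 2 libraries, and 1 on the median-centred scale). Of the others, Pecam1, Vwf and Tie1 stayed under 0.2 unnormalised FPKM in every library of both groups. The 9 leukocyte markers summed to 50.7 to 73.5 with PDGF and 8.40 to 18.8 with JQ1. Of the 2 tested, Cd14, a lipopolysaccharide co-receptor, fell by 3.49 ± 0.21, from between 48.9 and 72.2 to between 3.57 and 5.01 normalised FPKM. Cd68, a lysosomal glycoprotein of macrophages, had 0.213, 0.737 and 0.949 with PDGF and 12.95, 4.16 and 6.19 with JQ1 and rose by 2.33 ± 0.40 (limma adjusted p = 0.000155), with PDGF replicate 0 listed at 0 before normalisation. The 2 leukocyte markers tested thus went opposite ways while Ptprc was at 0 throughout, and the part of other cell types in the results was not tested.

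Adventitial fibroblast markers summed to 144 to 161 with PDGF and 10.7 to 13.2 with JQ1. Of 5 tested 4 fell (Lum, Pdgfra, Pi16 and Col14a1; 3 on the median-centred scale, 3 and 2 without 2 libraries), and Dpt and Ly6c were at 0 in all 6 libraries. Lum and Pdgfra, which make up most of that sum, are also counted among the matrix and receptor genes above. Of the 6 neural markers Sox10 was at 0 in all 6 libraries, and Tubb3 (a neuronal beta-tubulin) rose by 0.88 ± 0.21. These markers summed to 7.84 to 10.2 with PDGF and 13.9 to 17.1 with JQ1. The 8 epithelial and adipocyte markers summed to 0.912 to 1.35 and 0.843 to 0.907, the 2 tested did not pass, and Krt19, Cdh1, Adipoq and Fabp4 were at 0.

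The nearest comparison in the study is JQ1 plus PDGF against PDGF at 2 h, which shares no library with that at 24 h. At 2 h 3449 genes (34.0%) fell and 734 (7.24%) rose on the normalised scale, and 2143 (21.5%) fell and 2003 (20.1%) rose median-centred. Of the genes that fell at 24 h 51.5% also fell at 2 h, and of those that fell at 2 h 73.4% also fell at 24 h (45.7% and 55.0% on the median-centred scale). For genes that rose the shares were 40.3% and 25.6% (44.8% and 51.6% on the median-centred scale), so that these shares depended on the scale. Across the 10133 genes the differences at both times had a Spearman correlation of 0.46, which is a description, since genes are not independent replicates. The difference at 24 h minus that at 2 h, tested as an interaction in the same limma fit, passed for 2259 genes (22.3%), 1771 lower (17.5%) and 488 higher (4.82%). On the median-centred scale 2980 passed (29.9%), of which 1637 (16.4%) were lower and 1343 (13.5%) higher.

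Contractile and matrix genes differed between the times. At 2 h the Acta2 difference was 0.05 (not passed; 0.43, passed and higher, on the median-centred scale) and that of Tagln 0.48 (passed and higher on both), against -3.43 ± 0.16 and -1.52 ± 0.15 at 24 h. The change between times was -3.49 for Acta2 and -2.01 for Tagln (limma adjusted p = 6.58e-08 and 1.09e-05). In the contractile list 15 of 24 genes passed lower in this test of the time difference and none higher (14 and 1 on the median-centred scale). Over all genes tested the shares were 17.5% lower and 4.82% higher (16.4% and 13.5% on the median-centred scale). In the collagen list 10 of 13 passed lower, in the elastic fibre list 12 of 18 and in the G2/M list 16 of 28, each with none higher, and on the median-centred scale these counts were 10, 14 and 16. Eln stood at -0.64 at 2 h (passed on the normalised scale only) and Col3a1 at -0.32 (not passed on either). Their interaction values were -4.47 and -4.69.

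For inflammatory genes the median difference was -1.24 at 2 h and -0.96 at 24 h, and for interferon genes -1.36 and -1.01, beside -0.29 and -0.48 for all genes tested. The same list medians on the median-centred scale were -0.93 and -0.45, and -1.07 and -0.64. Ccl2 was lower by 2.68 at 2 h and by 1.84 at 24 h, and the interaction was 0.84 (limma adjusted p = 0.0282). Grem1, Kcnn4 and Prrx1 had nearly equal values at both times: -2.99 and -3.13 ± 0.12 for Grem1, -3.62 and -3.74 ± 0.20 for Kcnn4, and -2.61 and -2.58 ± 0.17 for Prrx1. None of these 3 passed the interaction test (limma adjusted p of 0.588, 0.821 and 0.958), which does not show that they were equal. In the interferon list 2 of 19 genes passed this test lower and 2 higher (2 and 4 on the median-centred scale). In the inflammatory list 6 of 18 passed in each direction (6 lower and 10 higher). The shares over all genes tested were 17.5% lower and 4.82% higher (16.4% and 13.5% on the median-centred scale).

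Upward, ribosome biogenesis and immediate early genes differed between times. In the first list none rose and 13 of 26 fell at 2 h on the normalised scale (median -0.30, and 0.03 median-centred), and 16 passed higher in the interaction test with none lower (21 and 0 on the median-centred scale). In the second, 13 of 24 passed higher and 2 lower (17 and 2). Plk5 was at -0.03 at 2 h and 5.22 ± 0.32 at 24 h, with an interaction of 5.25 (limma adjusted p = 1.01e-06). Hexim1 rose at both times, by 2.08 at 2 h and 1.52 ± 0.13 at 24 h, and its interaction was -0.56 (limma adjusted p = 0.0425; -0.38 and adjusted p = 0.066 on the median-centred scale). Gclc and H3f3b rose at both times, by 1.99 and 2.12 ± 0.13 and by 1.45 and 1.63 ± 0.11, and neither passed the interaction test (limma adjusted p of 0.671 and 0.41).

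**Figure D5:**
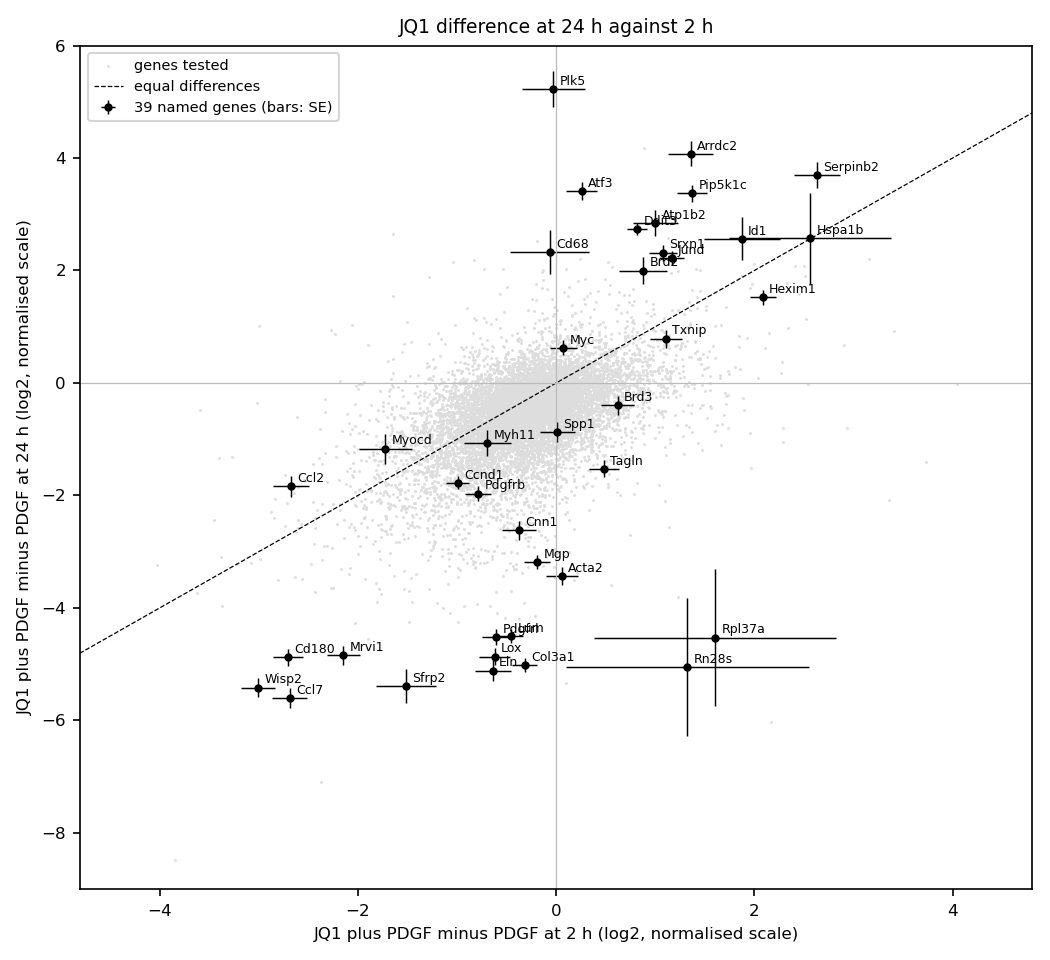
Log2 difference between JQ1 plus PDGF and PDGF at 24 h (vertical) against that at 2 h (horizontal) on the normalised scale, with all genes tested in grey and 39 named genes in black (bars are the SE of the limma fit). Eln, Col3a1 and Acta2 lie far below the dashed line of equal differences, and Plk5, Atf3 and Cd68 stand near 0 at 2 h and high at 24 h.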

How the data were processed

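RNA from rat aortic smooth muscle cells was sequenced in 14 libraries of 5 groups (stranded polyadenylated RNA, 40-base single-end reads, per the labels' protocols). The authors deposited FPKM per gene in a normalised and an unnormalised table. HISAT and Cufflinks 2.0.0 and build rn6 are named in the submitters' processing notes; the annotation and the normalisation are not given in the sources used here. Reads per library are unknown, so no counting interval could be given.

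With R 4.3.3 and limma 3.58.1, log2(FPKM + 1) was fitted with trend over all 14 libraries by group (9 residual degrees of freedom), for genes at 1 FPKM or more in at least 2 libraries, with Benjamini-Hochberg adjustment. For the median-centred scale the unnormalised values were divided by median-of-ratios size factors. Groups came from the sample titles. On simulated data for this comparison (10133 genes) 26.87%, 74.63% and 100% of genes changed 1.5-, 2- and 4-fold were recovered, with 4 false calls. There only 67, 67 and 66 genes were changed, none of low level, with independent normal noise. In the data 53.1% of genes passed and most shared a direction, so these rates cannot be taken as those of the real comparison.

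Named genes were the 12 lowest and 12 highest that passed on both scales without overlap and with 5 FPKM or more in the higher group, 15 fixed genes (a further one is not reported here), and up to 4 per list from those that passed. The 37 lists (783 genes, 753 in the tables, 666 tested) and the members were chosen with earlier results of these data known. Alternatives were another pseudocount, other filters, both scalings, the 6 libraries alone and each library left out. Promoters (GRCr8, RefSeq) were matched by symbol.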

Additional observations from a re-analysis of the deposited data

Results flagged for a closer look

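The difference made by JQ1 at 24 h was tested against that at 2 h for 39 named genes, and for 32 of them the difference between the times passed on both scales (limma, adjusted p under 0.05), 20 lower and 12 higher at 24 h. Over all genes tested 22.3% passed this test on the normalised scale and 29.9% on the median-centred scale, and 24 of the 39 were chosen for the lowest and highest differences at 24 h, which favours a difference from 2 h, so the count supports nothing about these genes as a set. Values are the log2 difference at 24 h minus that at 2 h on the normalised scale. Among matrix and mineralisation genes these were Wisp2 (-2.41), Eln (-4.47), Col3a1 (-4.69), Lox (-4.25), Lum (-4.05), Spp1 (-0.88) and Mgp (-3.00). Among contractile and calcium-handling genes they were Mrvi1 (-2.69), Acta2 (-3.49), Cnn1 (-2.24) and Tagln (-2.01). The other lower values were Ccl7 (-2.91), Sfrp2 (-3.88), Cd180 (-2.17), Pdgfrl (-3.91), Brd3 (-1.02), Ccnd1 (-0.78) and Pdgfrb (-1.18). For Rn28s (-6.38) and Rpl37a (-6.13) the libraries of several groups spread too widely for the value to be read.

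The higher values were Plk5 (5.25), Arrdc2 (2.72), Serpinb2 (1.06), Atf3 (3.15), Pip5k1c (2.00), Atp1b2 (1.84), Ddit3 (1.92), Cd68 (2.39), Srxn1 (1.24), Jund (1.06), Brd2 (1.12) and Ccl2 (0.84). Ccl2 differs from the others here in that it fell at both times and less far at 24 h. Brd3, which did not pass at 24 h alone, was higher with JQ1 at 2 h. Groups of 3 libraries are too small for a look at single outlying samples, so none was made.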

How the results depend on the processing

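Of 152 named genes 151 passed, and 134 kept their side of the threshold and their direction under every alternative run. All but the fixed genes were named from those that passed, so the count of 151 was largely set by that choice. The count of 134 describes genes picked in this way and is no rate for all genes tested. The 2 reversed values were both median-centred: Psmb2 (0.0725) and Psma2 (0.0716). On the median-centred scale 2305 genes were higher and 2578 lower (467 and 4918 on the normalised scale), 1343 passed higher in the test of the difference between times, and the median difference was 0.00, since that scale sets the median of all genes to 0 by construction. Without a filter on low values the median was -0.0723, since genes near 0 then enter it.

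With each library left out in turn, the genes that passed numbered 4423 to 5539 (336 to 440 higher, 3983 to 5203 lower), and 4190 to 4380 on the median-centred scale (1938 to 2058 higher, 2252 to 2322 lower). For the difference between times the counts were 1721 to 2571 (357 to 630 higher, 1300.0 to 2072 lower). The median difference ran from -0.57 to -0.43 and the spike-in share difference from 0.577 to 0.773 percentage points. No paired analysis was possible because the title letters of both groups at 24 h do not overlap, and because the columns carry digits that could not be tied to the letters, some of which recur between 24 h and 2 h. Depth is unknown in FPKM, so no limit of detection could be given. Without replicate 0 of the PDGF group and replicate 1 of the JQ1 plus PDGF group, an alternative chosen after seeing the data, 3752 genes passed (375 higher, 3377 lower).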

Other observations

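Ordered by mean level and split into 4 bins of equal size, the genes tested had median differences of -0.64, -0.53, -0.40 and -0.41 from the lowest to the highest bin on the normalised scale. On the median-centred scale the medians were -0.26, -0.01, 0.11 and 0.10. The share of genes that rose was 2.41% in the lowest bin and 7.70% in the highest on the normalised scale, and the share that fell was 43.6% and 53.8%. On the median-centred scale the share that rose was 7.62% and 36.6%, and the share that fell was 29.1% and 25.7%, so the order of the shares that fell depended on the scale.

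Of 44 microRNA loci tested, whose values come from polyadenylated RNA and not from mature microRNAs, 7 fell and none rose on the normalised scale, beside 48.5% lower and 4.61% higher of all genes tested. On the median-centred scale 4 fell and none rose, beside 25.8% and 23.1%.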
